A study of Mus musculus with 6 samples.

Results

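The genes described here are Ctla4, Icos, Cd160, Havcr2 and Cd200, which encode 3 inhibitory receptors, a costimulatory receptor and the ligand of an inhibitory receptor. They were taken as all probe sets annotated to 1 of these symbols, which gave 10 of the 45141 probe sets on the arrays. Cd160 had 4 probe sets, Icos 3, and Ctla4, Havcr2 and Cd200 had 1 each, and at the level of genes they were 5 of the 17097 tested. A probe set is a group of short probes against 1 transcript, and probe sets of 1 gene share its RNA and are not replicates.

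RNA was measured on 6 one-colour arrays from cultures of CD4+CD25- T cells of female C57BL/6 mice, 2 cultures for each of 3 coatings of the culture plate, with 1 array per culture. The mice's age is not given in the sources used here, and their tissue is named as spleen in one place and as spleen with lymph nodes in another. In the BTNL2 wells the plate carried the anti-CD3 antibody 2C11 at 2 µg/ml, rB7-2.Fc at 3 µg/ml and rBTNL2.Fc at 11 µg/ml. In the B7-2 wells it carried the antibody and rB7-2.Fc at the same concentrations with control IgG, and in the anti-CD3 wells the antibody with control IgG alone. Anti-CD3 triggers the T cell receptor, B7-2 (CD86) is the ligand of CD28 and CTLA-4, and BTNL2 belongs to the butyrophilin-like proteins, which resemble B7 ligands. All wells held the same number of cells with 0.36 ng/ml of TGF-beta and 10 ng/ml of IL-2, and were harvested after 4 days. The ligands were therefore recombinant proteins on plastic and not proteins on a presenting cell, and cells with surface CD25 had been removed at the start.

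CTLA-4 and ICOS are receptors of the CD28 family. CTLA-4 is induced by activation, binds the same B7 ligands as CD28 with higher affinity and restrains the response, whereas ICOS binds ICOS ligand and recruits phosphoinositide 3-kinase. Havcr2 encodes TIM-3, an inhibitory receptor of chronically stimulated T cells and of myeloid cells, and Cd160 encodes a glycolipid-anchored receptor of NK cells and cytotoxic T cells that binds HVEM. CD200 is a surface glycoprotein of activated T cells and B cells and signals through the inhibitory receptor CD200R1 on other cells.

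Across the 17097 genes, which are not independent of each other, r was 0.997 to 0.998 between duplicates and 0.974 to 0.987 between arrays of unlike coating. Nothing in the labels says that duplicates came from separate animals, so p-values measure the spread between these cultures and arrays only, and 2 arrays per group limit the precision. Median intensity was 18.45 to 18.77, and the highest of the 23 nonspecific control probe sets read 5.02 to 5.99. Of 8 measured T cell markers, Cd4 among them, the summed intensity was 17514 and 17334 in BTNL2 wells, 17267 and 17470 in B7-2 wells, and 21974 and 21596 in anti-CD3 wells. Apart from Cd4, these genes are not particular to CD4 T cells. Cd4 itself read 1103 and 1159 in BTNL2 wells, 1407 and 1320 in B7-2 wells, and 1705 and 1557 in anti-CD3 wells. Of 8 dendritic cell markers 6 were measured, summing to 378 and 452 in BTNL2 wells, 1092 and 1057 in B7-2 wells, and 1296 and 1261 in anti-CD3 wells, with 1 called higher and 1 lower in BTNL2 than in B7-2 wells. Batf3, a transcription factor gene that T cells also express, made up most of these sums, with 309 and 379 in BTNL2 wells, 1027 and 999 in B7-2 wells, and 1228 and 1191 in anti-CD3 wells. The other 5 markers summed to 69.2 and 73.1 in BTNL2 wells, 64.8 and 58.0 in B7-2 wells, and 68.7 and 70.6 in anti-CD3 wells. In these bulk RNA samples, fewer cells of a type and less RNA per cell cannot be told apart.

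The promoters of 4 of the 5 genes were taken from RefSeq (GRCm38.p6), 1 window for Ctla4, Havcr2 and Cd200 and 2 for Cd160. The Icos promoter was not analysed here. A window of each is shown so that the sequence before each gene can be read beside its values. Each window holds 300 bases, 250 before the annotated start of transcription and 50 after it, printed 5′ to 3′ on the strand of the gene. The position is Ctla4 chr1:60908775-60909074 on the plus strand, Havcr2 chr11:46454681-46454980 on the plus strand, Cd160 chr3:96814472-96814771 on the minus strand, and Cd200 chr16:45409004-45409303 on the minus strand. Capitals mark matches on either strand to AP-1 (TGANTCA), the NFAT core (GGAAA), a T-box motif (GGTGTGA), a forkhead motif (TGTTTAC) or a STAT-type palindrome (TTCNNNGAA).
Ctla4 promoter: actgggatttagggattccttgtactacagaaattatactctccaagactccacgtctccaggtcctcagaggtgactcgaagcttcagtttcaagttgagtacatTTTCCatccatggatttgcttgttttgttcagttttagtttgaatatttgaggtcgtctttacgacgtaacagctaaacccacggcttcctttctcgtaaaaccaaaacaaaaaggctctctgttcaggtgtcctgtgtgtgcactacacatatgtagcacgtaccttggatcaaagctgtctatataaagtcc
Havcr2 promoter: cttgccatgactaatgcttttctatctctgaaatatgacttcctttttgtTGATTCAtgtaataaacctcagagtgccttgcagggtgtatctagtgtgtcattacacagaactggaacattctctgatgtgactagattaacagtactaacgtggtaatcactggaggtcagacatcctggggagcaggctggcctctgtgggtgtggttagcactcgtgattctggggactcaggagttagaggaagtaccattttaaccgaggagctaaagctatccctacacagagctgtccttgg
Cd160 promoter: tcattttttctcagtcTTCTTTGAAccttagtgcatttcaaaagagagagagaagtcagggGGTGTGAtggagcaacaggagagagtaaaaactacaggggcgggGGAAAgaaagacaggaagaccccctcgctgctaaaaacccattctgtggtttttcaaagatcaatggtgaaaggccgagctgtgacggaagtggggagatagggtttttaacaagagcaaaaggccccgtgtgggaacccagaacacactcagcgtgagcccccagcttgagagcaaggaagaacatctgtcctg
Cd200 promoter: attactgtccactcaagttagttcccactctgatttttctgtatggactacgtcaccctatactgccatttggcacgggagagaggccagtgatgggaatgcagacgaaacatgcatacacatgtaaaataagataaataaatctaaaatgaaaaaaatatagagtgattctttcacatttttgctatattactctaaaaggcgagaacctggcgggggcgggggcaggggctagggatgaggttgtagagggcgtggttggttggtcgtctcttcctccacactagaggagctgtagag

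The Ctla4 window held 1 NFAT core, starting 144 bases before the start of transcription. The Havcr2 window held 1 AP-1 match 200 bases before the start. The printed Cd160 window held 1 STAT-type palindrome at 234, 1 T-box match at 189 and 1 NFAT core at 145 bases before the start. The short NF-kB motif GGGGA, not capitalised, was matched 2 times in this Cd160 window, where the match at 147 overlapped the NFAT core, and 2 times in Havcr2. None of the 6 motifs was found in the Cd200 window, and in the second Cd160 window, which is not printed, the one match type was GGGGA. Of all 32851 windows, 7.81% held AP-1, 61.3% the NFAT core, 3.98% the T-box motif, 3.65% the forkhead motif, 61.4% GGGGA and 8.3% the palindrome. A match is a description of letters, and no binding was measured here.

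The comparisons were BTNL2 with B7-2 wells, BTNL2 with anti-CD3 wells and B7-2 with anti-CD3 wells. They ask what BTNL2 changed beside B7-2, how the full coating compared with anti-CD3 alone, and what B7-2 added to anti-CD3. Each pair of comparisons shares 2 arrays, so a rise in one and a fall in another are not independent. All 5 genes were called in BTNL2 against B7-2 wells, 3 higher and 2 lower, where 20.4% of all genes were called (9.52% higher and 10.8% lower). In BTNL2 against anti-CD3 wells 4 of the 5 were called, 2 higher and 2 lower, against 30.4% of all genes (14.2% higher and 16.2% lower). In B7-2 against anti-CD3 wells 4 were called, 3 higher and 1 lower, against 24.5% of all genes (11.2% higher and 13.3% lower). A call is a Benjamini-Hochberg adjusted p under 0.05 in limma over all genes, and ± gives the standard error of a log2 change unless SD is named.

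**Figure D1:**
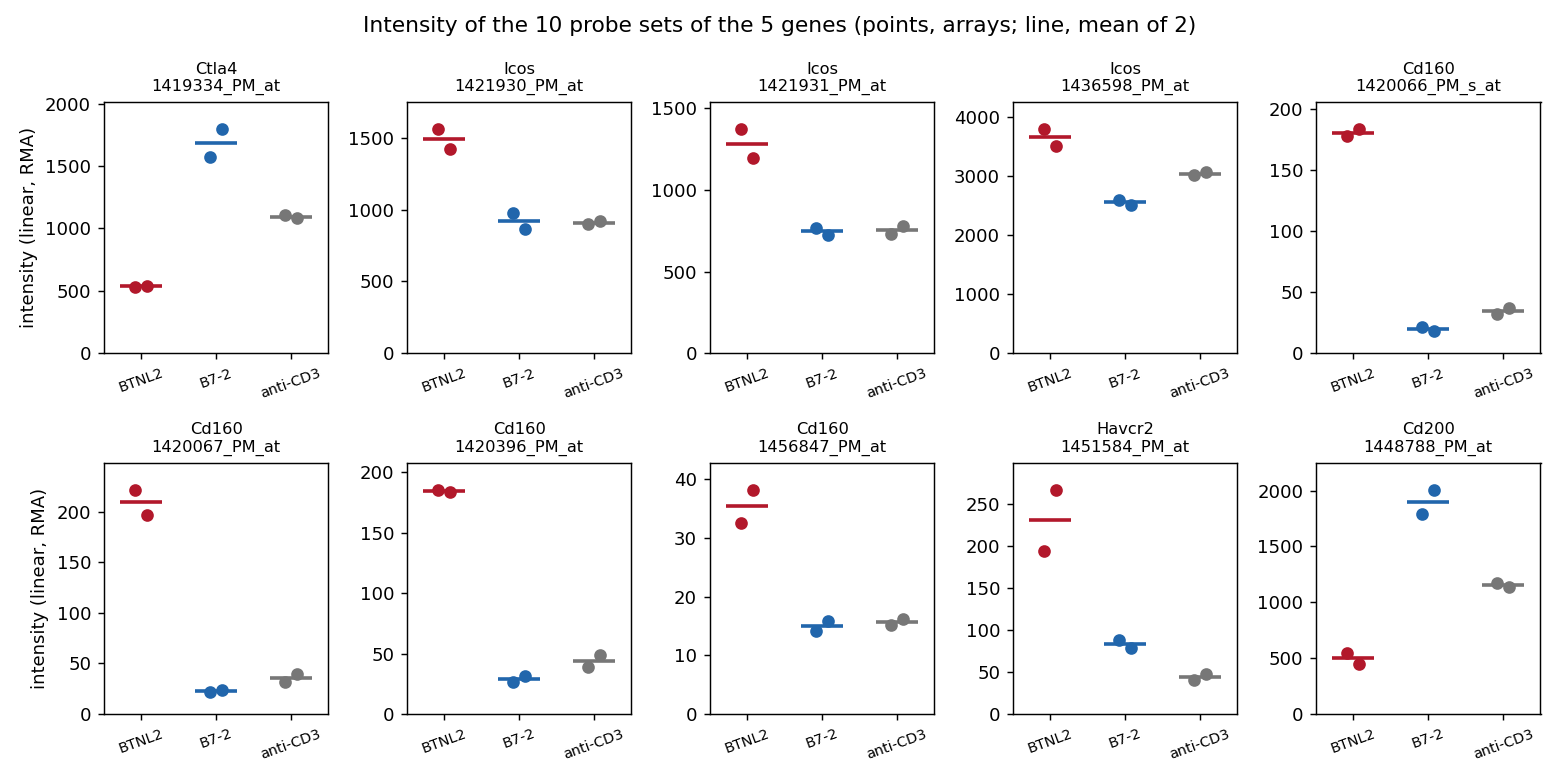
Linear RMA intensity of the 10 probe sets of Ctla4, Icos, Cd160, Havcr2 and Cd200 in BTNL2, B7-2 and anti-CD3 wells; points are arrays, lines the means of 2, and each axis starts at 0. Ctla4 and Cd200 were lowest in BTNL2 wells and highest in B7-2 wells, and all Icos and Cd160 probe sets and Havcr2 were highest in BTNL2 wells.

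Ctla4, the gene of the inhibitory B7 receptor, was lower in BTNL2 wells than in either other group. Its probe set 1419334_PM_at read 532 and 540 in BTNL2 wells, 1572 and 1798 in B7-2 wells, and 1105 and 1082 in anti-CD3 wells. The BTNL2 arrays lay below and the B7-2 arrays above all others, and no groups overlapped. Against the B7-2 wells Ctla4 fell 3.14-fold with BTNL2 (log2 change -1.65 ± 0.10, limma adjusted p = 6.62e-05), and against anti-CD3 alone it fell 2.04-fold (log2 change -1.03 ± 0.10, adjusted p = 0.000326). B7-2 without BTNL2 raised it 1.54-fold over anti-CD3 (log2 change 0.62 ± 0.10, adjusted p = 0.00427). The order of the levels was thus B7-2, anti-CD3 and BTNL2 wells from high to low, with a call between each pair. The mean was 536 ± 5.98 in BTNL2 wells, 1685 ± 160 in B7-2 wells and 1094 ± 15.9 in anti-CD3 wells (SD, n = 2).

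Cd160 had the largest change of the 5 genes in BTNL2 against B7-2 wells. Its probe set of highest mean, 1420396_PM_at, read 186 and 183 in BTNL2 wells, 26.5 and 31.0 in B7-2 wells, and 39.0 and 49.0 in anti-CD3 wells. Both BTNL2 arrays were far above the other 4. Cd160 rose 6.44-fold over B7-2 (log2 change 2.69 ± 0.13, limma adjusted p = 3.64e-05) and 4.22-fold over anti-CD3 (log2 change 2.08 ± 0.13, adjusted p = 7.19e-05). In B7-2 wells it was 1.53-fold lower than with anti-CD3 alone (log2 change -0.61 ± 0.13, adjusted p = 0.0167), a call that was lost without the second anti-CD3 array (log2 change -0.45, adjusted p = 0.0844) and without the first B7-2 array (log2 change -0.50, adjusted p = 0.0888).

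The other Cd160 probe sets differed in size but not in direction. 1420066_PM_s_at read 178 and 184 in BTNL2 wells, 21.3 and 18.0 in B7-2 wells, and 32.5 and 36.8 in anti-CD3 wells, which is 9.25-fold higher with BTNL2 than with B7-2. By this probe set Cd160 was 1.77-fold lower with B7-2 than with anti-CD3 (limma adjusted p = 0.00392 over all probe sets). Without 1 array that log2 change ranged from -0.94 to -0.70. With the mean of the 4 probe sets it was -0.54 (limma adjusted p = 0.00763). 1420067_PM_at read 222 and 196 in BTNL2 wells, 21.4 and 23.6 in B7-2 wells, and 31.7 and 39.99 in anti-CD3 wells, 9.29-fold higher with BTNL2 than with B7-2. The dimmest, 1456847_PM_at, read 32.6 and 38.3 in BTNL2 wells, 14.2 and 15.8 in B7-2 wells, and 15.2 and 16.1 in anti-CD3 wells. Its rise over B7-2 was 2.36-fold (log2 change 1.24 ± 0.12, limma adjusted p = 0.00057 over all probe sets), and its B7-2 and anti-CD3 arrays overlapped.

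CD160 is carried by CD8 T cells and NK cells, which the bead selection of CD4+ cells before culture should have left out, and markers of these cells moved with it. The summed intensity of the 9 measured of 10 such markers was 3218 and 2752 in BTNL2 wells, 339 and 331 in B7-2 wells, and 689 and 746 in anti-CD3 wells. In BTNL2 against B7-2 wells 7 of the 9 were called higher and 0 lower. Eomes, a T-box factor gene of cytotoxic T cells and NK cells, had the largest change, with 1337 and 991 in BTNL2 wells against 19.98 and 16.3 in B7-2 wells (63.8-fold, limma adjusted p = 5.55e-06). Cd8a read 987 and 924 in BTNL2 wells, 119 and 107 in B7-2 wells, and 302 and 321 in anti-CD3 wells. Cd8b1, of the same list, read 86.4 and 91.9 in BTNL2 wells, 41.8 and 30.7 in B7-2 wells, and 68.2 and 64.3 in anti-CD3 wells. Without Eomes and Cd8a the other 7 summed to 894 and 836 in BTNL2 wells, 199.9 and 208 in B7-2 wells, and 366 and 408 in anti-CD3 wells. Between B7-2 and anti-CD3 wells 0 were higher and 5 lower. Ncr1, an NK receptor gene, stayed at 6.62 and 5.76 in BTNL2 wells, 5.24 and 4.75 in B7-2 wells, and 5.84 and 5.08 in anti-CD3 wells, close to the nonspecific controls. Of 6 gamma-delta T cell markers 2 were measured, summing to 28.5 and 26.7 in BTNL2 wells, 27.2 and 26.0 in B7-2 wells, and 27.8 and 28.8 in anti-CD3 wells. The part of other cells in the change of Cd160 was not tested.

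Havcr2, the TIM-3 gene, was the one gene of the 5 that rose both with BTNL2 over B7-2 and with B7-2 over anti-CD3. Its probe set 1451584_PM_at read 194 and 267 in BTNL2 wells, 88.6 and 78.4 in B7-2 wells, and 40.4 and 47.1 in anti-CD3 wells. The groups did not overlap, and the 2 BTNL2 arrays lay further apart than those of any other group (231 ± 51.8, 83.5 ± 7.25 and 43.7 ± 4.77 in BTNL2, B7-2 and anti-CD3 wells; SD, n = 2). Havcr2 rose 2.73-fold with BTNL2 over B7-2 (log2 change 1.45 ± 0.17, limma adjusted p = 0.00112) and 5.22-fold over anti-CD3 (log2 change 2.38 ± 0.17, adjusted p = 9.49e-05). With B7-2 over anti-CD3 it rose 1.91-fold (log2 change 0.93 ± 0.17, adjusted p = 0.00703), and without the first anti-CD3 array this had an adjusted p of 0.0506 at a log2 change of 0.82. TIM-3 is also a receptor of myeloid cells. The 11 myeloid markers summed to 183 and 171 in BTNL2 wells, 208 and 199 in B7-2 wells, and 241 and 264 in anti-CD3 wells, with 0 called higher and 1 lower, Cd68, in each comparison. Without Cd68 the other 10 summed to 123 and 119 in BTNL2 wells, 116 and 119 in B7-2 wells, and 112 and 129 in anti-CD3 wells. Lyz2, the lysozyme gene, averaged 11.1 ± 4.42 in BTNL2 wells, 7.55 ± 0.714 in B7-2 wells and 7.84 ± 0.0495 in anti-CD3 wells (SD, n = 2). The CD8 T cell and NK cell markers given with Cd160 summed to 3218 and 2752 in BTNL2 wells. Their sum was 339 and 331 in B7-2 wells and 689 and 746 in anti-CD3 wells. The part of other cells in the change of Havcr2 was not tested.

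Icos, the costimulatory receptor gene, was higher in BTNL2 than in B7-2 wells by all 3 of its probe sets, by a smaller fold than any other gene of the 5. The brightest, 1436598_PM_at, read 3804 and 3511 in BTNL2 wells, 2605 and 2509 in B7-2 wells, and 3013 and 3070 in anti-CD3 wells. The BTNL2 arrays were above and the B7-2 arrays below the anti-CD3 arrays. By this probe set Icos rose 1.43-fold over B7-2 (log2 change 0.52 ± 0.09, limma adjusted p = 0.00703). Its differences from anti-CD3 alone did not pass the test: the log2 change was 0.26 (95% interval 0.05 to 0.48, adjusted p = 0.0639) in BTNL2 wells and -0.25 (95% interval -0.46 to -0.04, adjusted p = 0.087) in B7-2 wells. Both had an adjusted p under 0.05 when the variance prior followed intensity (0.000668 and 0.00138) and with dim genes left out (0.0354 and 0.0495).

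The 2 dimmer Icos probe sets gave another picture against anti-CD3. 1421930_PM_at read 1564 and 1420 in BTNL2 wells, 978 and 869 in B7-2 wells, and 899 and 919 in anti-CD3 wells, and 1421931_PM_at read 1374 and 1192 in BTNL2 wells, 768 and 722 in B7-2 wells, and 732 and 780 in anti-CD3 wells. In both, the B7-2 and anti-CD3 arrays overlapped and the BTNL2 arrays stood above them. Against anti-CD3 the rise with BTNL2 was 1.64-fold and 1.69-fold (limma adjusted p = 0.00291 and 0.00244 over all probe sets). With the mean of the 3 probe sets, Icos was called higher in BTNL2 than in anti-CD3 wells (log2 change 0.58, adjusted p = 0.00275), and its log2 change with B7-2 over anti-CD3 was -0.08 (adjusted p = 0.585). Whether the level with B7-2 lay below that with anti-CD3 thus depended on the probe set. In the test over all 45037 probe sets, 1436598_PM_at lost its call between BTNL2 and B7-2 wells when certain single arrays were left out. These were the first B7-2 array (log2 change 0.54), the second (0.49) and the first BTNL2 array (0.46). In the test over genes the same probe set kept its call in each of these cases.

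Cd200, the gene of the ligand, followed the order seen for Ctla4. Its probe set 1448788_PM_at read 545 and 449 in BTNL2 wells, 1788 and 2009 in B7-2 wells, and 1170 and 1140 in anti-CD3 wells. The BTNL2 arrays were the lowest and the B7-2 arrays the highest, with no overlap. Cd200 fell 3.83-fold with BTNL2 against B7-2 (log2 change -1.94 ± 0.12, limma adjusted p = 7.47e-05) and 2.33-fold against anti-CD3 (log2 change -1.22 ± 0.12, adjusted p = 0.000387). B7-2 over anti-CD3 raised it 1.64-fold (log2 change 0.71 ± 0.12, adjusted p = 0.00561). B cells also carry CD200. The 9 measured of 10 B cell markers summed to 756 and 967 in BTNL2 wells, 557 and 529 in B7-2 wells, and 943 and 879 in anti-CD3 wells. Without the 2 brightest, Cd79b and Ms4a1, the other 7 summed to 279 and 356 in BTNL2 wells and 342 and 325 in B7-2 wells. In anti-CD3 wells these 7 summed to 534 and 474. With BTNL2 against anti-CD3, 1 of the 9 markers was called higher and 4 lower. The B cell factor gene Pax5 read 6.33 to 8.01 on the 6 arrays, and the part of B cells in the change of Cd200 was not tested.

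**Figure D2:**
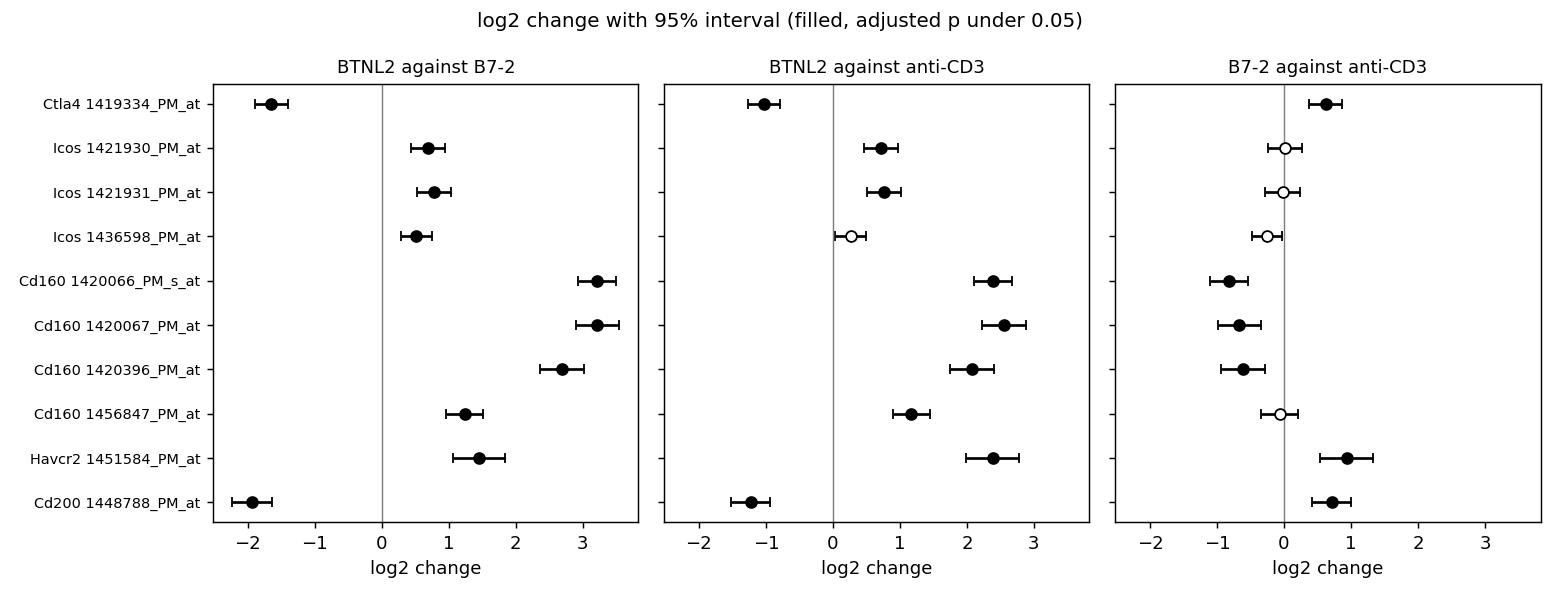
log2 change with its 95% interval for each of the 10 probe sets in the 3 comparisons, from the limma fit over all probe sets; filled points had an adjusted p under 0.05. In BTNL2 against B7-2 wells all 10 are filled, with Ctla4 at -1.65 and Cd200 at -1.94 left of 0 and the other 8 right of it.

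Tested as single probe sets, all 10 were called in BTNL2 against B7-2 wells, 8 higher and 2 lower, where 13.8% of all probe sets were called (6.77% higher and 7.04% lower). In BTNL2 against anti-CD3 wells 9 were called, 7 higher and 2 lower, against 22.2% of all probe sets (11.5% higher and 10.7% lower). In B7-2 against anti-CD3 wells 6 were called, 3 higher and 3 lower, against 17.3% (8.78% higher and 8.56% lower). That count was 3 without the first B7-2 array, where the calls of Havcr2 and of the Cd160 probe sets 1420067_PM_at and 1420396_PM_at were lost. Non-overlap of 2 arrays with 2 others held for 58.9% of all genes in BTNL2 against B7-2 wells, 63% in BTNL2 against anti-CD3 wells and 60.1% in B7-2 against anti-CD3 wells. Over all probe sets the shares were 53.6%, 57.7% and 55.6% in the same order.

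The ligands and partners of these proteins were read from the same arrays. Icosl, the gene of ICOS ligand, read 248 and 191 in BTNL2 wells, 20.8 and 14.5 in B7-2 wells, and 24.3 and 17.1 in anti-CD3 wells. It rose 12.5-fold with BTNL2 over B7-2 (log2 change 3.65 ± 0.23, limma adjusted p = 8.58e-05), while its log2 change with B7-2 over anti-CD3 was -0.23 ± 0.23 (adjusted p = 0.557). ICOS ligand is carried by B cells, whose marker sums are given above. Among those markers, 4 of 9 were called higher in BTNL2 than in B7-2 wells and 1 lower. Ms4a1 (CD20) had the largest rise, with 280 and 384 in BTNL2 wells against 95.3 and 97.8 in B7-2 wells. The marker called lower, Ebf1, fell 2.70-fold, to 49.6 and 61.5 in BTNL2 wells against 161 and 138 in B7-2 wells (limma adjusted p = 0.000414). The part of B cells in the change of Icosl was not tested.

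Lgals9, which encodes the TIM-3 ligand galectin-9, read 846 and 721 in BTNL2 wells, 547 and 557 in B7-2 wells, and 503 and 529 in anti-CD3 wells. Its 1.42-fold rise over B7-2 (log2 change 0.50 ± 0.10, limma adjusted p = 0.0157) lost its call without the first B7-2 array (adjusted p = 0.0754), the second (0.0609) or the first BTNL2 array (0.0748). Ceacam1, another reported TIM-3 partner, read 20.3 and 21.5 in BTNL2 wells, 13.9 and 13.2 in B7-2 wells, and 11.6 and 12.9 in anti-CD3 wells, a 1.54-fold rise over B7-2 (adjusted p = 0.00415). Tnfrsf14, which encodes the CD160 ligand HVEM, was dim at 21.3 and 18.4 in BTNL2 wells, 15.6 and 16.4 in B7-2 wells, and 20.7 and 20.2 in anti-CD3 wells. It was called lower in B7-2 than in anti-CD3 wells (log2 change -0.36 ± 0.10, adjusted p = 0.0417), a call that was lost without any 1 of the 4 arrays compared (adjusted p = 0.103 to 0.167), and its log2 change with BTNL2 over B7-2 was 0.31 (adjusted p = 0.0785). Cd200r1, the CD200 receptor gene, had log2 changes of -0.06 (adjusted p = 0.817) with BTNL2 over B7-2 and 0.38 (adjusted p = 0.0915) with B7-2 over anti-CD3, the second of which was called when its probe sets were averaged (0.41, adjusted p = 0.0183).

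Cd28, the activating receptor that shares its ligands with CTLA-4, read 628 and 574 in BTNL2 wells, 963 and 1060 in B7-2 wells, and 1665 and 1548 in anti-CD3 wells. It fell 1.68-fold with BTNL2 against B7-2 (log2 change -0.75 ± 0.10, limma adjusted p = 0.00225) and 1.59-fold with B7-2 against anti-CD3 (log2 change -0.67 ± 0.10, adjusted p = 0.00363). Unlike Ctla4, it was therefore lower, not higher, with B7-2 than with anti-CD3 alone. Among the B7 ligands, Cd80 read 97.2 and 82.4 in BTNL2 wells, 88.1 and 82.2 in B7-2 wells, and 83.4 and 84.1 in anti-CD3 wells, with an adjusted p of 0.579 to 0.912. Cd86 was called lower in BTNL2 than in B7-2 wells (log2 change -0.43 ± 0.11, adjusted p = 0.0345), but not without any 1 of the 4 arrays (adjusted p = 0.102 to 0.132) or when its probe sets were averaged (log2 change -0.22, adjusted p = 0.224). With B7-2 against anti-CD3 the log2 change of Cd86 was -0.39 ± 0.11 (adjusted p = 0.0428). This call too was lost when its probe sets were averaged (log2 change -0.25, adjusted p = 0.152) and without either BTNL2 array (adjusted p = 0.0638), among other alternatives. It was also lost without either B7-2 array or the first anti-CD3 array, and the log2 change without 1 array ranged from -0.52 to -0.25.

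With BTNL2 against anti-CD3 alone, Icosl rose 10.7-fold (limma adjusted p = 8.57e-05) and Lgals9 1.51-fold (adjusted p = 0.00464). Cd28 fell 2.67-fold (adjusted p = 9.97e-05) and Cd86 1.76-fold (adjusted p = 0.00152). Tnfrsf14 had a log2 change of -0.05 (adjusted p = 0.766) and Cd200r1 one of 0.32 (adjusted p = 0.135), or 0.38 when its probe sets were averaged (adjusted p = 0.0188).

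**Figure D3:**
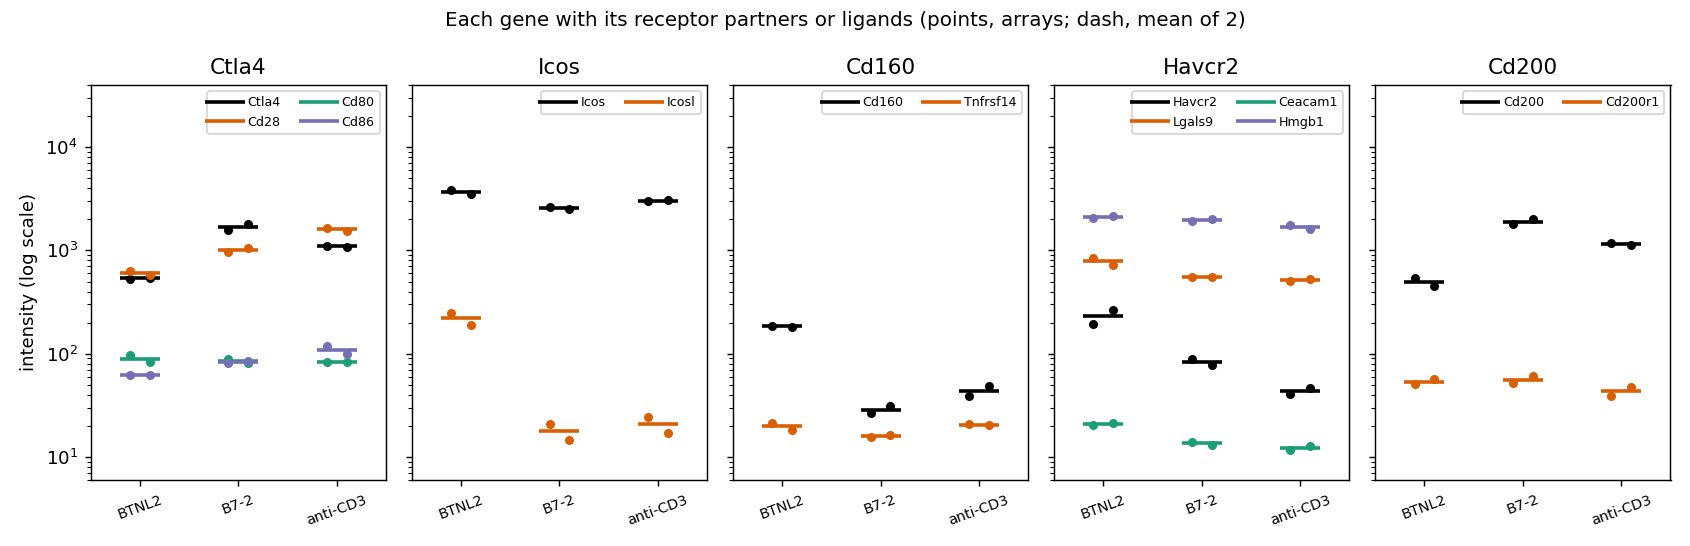
Intensity on a log axis of each of the 5 genes with its receptor partners or ligands in BTNL2, B7-2 and anti-CD3 wells; points are arrays and dashes the means of 2, and heights of different genes are not comparable. Icosl stands at 191 and 248 in BTNL2 wells and under 25 in the other wells, and Ctla4 and Cd28 are both lowest in BTNL2 wells.

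Lists of related genes, 5 in all, with 98 genes of which 92 were measured, were counted beside them. Ceacam1 and Cd200r1 stand in 2 lists, and no list was tested as a set. Of all genes, 20.4% were called in BTNL2 against B7-2 wells, 30.4% in BTNL2 against anti-CD3 wells and 24.5% in B7-2 against anti-CD3 wells. In the last of these comparisons, the counts of every list but the inhibitory receptors lay near that share. Of 17 measured inhibitory receptor genes, Ctla4, Cd160 and Havcr2 included, 8 were called higher and 6 lower in BTNL2 than in B7-2 wells, with a median log2 change of 0.18 against -0.01 over all genes. Cd96, an adhesion receptor of NK and T cells, rose 4.59-fold, to 1051 and 906 in BTNL2 wells against 219 and 207 in B7-2 wells (limma adjusted p = 2.95e-05). Lag3, the gene of an MHC class II receptor, fell 3.31-fold, to 226 and 348 in BTNL2 wells against 970 and 891 in B7-2 wells (adjusted p = 0.000918). Btla, which like CD160 is a receptor for HVEM, fell 2.74-fold, to 424 and 375 in BTNL2 wells against 1121 and 1066 in B7-2 wells (adjusted p = 0.000111). Cd5 fell 2.01-fold (adjusted p = 0.000318). The inhibitory receptor genes thus did not move as a block, and the HVEM receptors Cd160 and Btla changed in opposite directions.

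Set against anti-CD3 wells, 6 inhibitory receptor genes were called higher and 7 lower with BTNL2 (median 0.16), and in B7-2 against anti-CD3 wells 2 higher and 5 lower (median -0.03). The last total of 7 was 4 without either anti-CD3 array or without the first B7-2 array. Lair1, a collagen receptor gene, fell 2.89-fold with B7-2 against anti-CD3 (log2 change -1.53 ± 0.14, limma adjusted p = 0.000707), and Vsir, the gene of VISTA, 2.24-fold (log2 change -1.16 ± 0.14, adjusted p = 0.00178). With BTNL2 over B7-2, Vsir was called higher (log2 change 0.78 ± 0.14, adjusted p = 0.00976), but not without the second B7-2 array (adjusted p = 0.0543) or the first BTNL2 array (0.0501).

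Of 17 costimulatory receptor genes, Icos included, 4 were called higher and 7 lower in BTNL2 than in B7-2 wells (median -0.22). Leaving out the first B7-2 array gave 5 calls in place of 11, and leaving out the first BTNL2 array gave 4. Slamf6, a homophilic receptor gene of the SLAM family, rose 2.48-fold, to 204 and 183 in BTNL2 wells against 83.9 and 72.0 in B7-2 wells (limma adjusted p = 0.000278). Slamf1 of the same family fell 2.39-fold, to 181 and 197 in BTNL2 wells against 447 and 456 in B7-2 wells (adjusted p = 0.000291). Cd226 was dim, at 12.7 and 13.7 in BTNL2 wells against 20.3 and 17.8 in B7-2 wells. It fell 1.44-fold (limma adjusted p = 0.0111), a call lost without the first B7-2 array (log2 change -0.43) or the first BTNL2 array (-0.47). With BTNL2 against anti-CD3, 1 was called higher and 10 lower (median -0.39), 6 in all without either anti-CD3 array and 7 without the first BTNL2 array. B7-2 against anti-CD3 wells gave 1 higher and 4 lower (median -0.16), with Cd84 falling 2.17-fold (adjusted p = 0.000445) and Cd27, a TNF receptor family gene, 2.11-fold (adjusted p = 0.000525).

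Of 18 measured genes of ligands and partners, Cd200 included, 4 were called higher and 2 lower in BTNL2 than in B7-2 wells (median 0.07), 5 and 3 in BTNL2 than in anti-CD3 wells (median -0.06), and 1 and 2 in B7-2 than in anti-CD3 wells (median -0.06). The last total of 3 was 1 without the first anti-CD3 array or without either B7-2 array. Besides Icosl, Ceacam1 and Lgals9, Cd274, the PD-L1 gene, rose with BTNL2 over B7-2, to 448 and 354 in BTNL2 wells against 222 and 228 in B7-2 wells, which is 1.77-fold (limma adjusted p = 0.00381).

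Of 22 measured genes of signalling downstream of the CD28 family, 6 were called higher and 1 lower with BTNL2 against B7-2 (median 0.20), a total of 7 that was 4 without either B7-2 array or without the second BTNL2 array. Pik3r1, the regulatory subunit of the phosphoinositide 3-kinase that ICOS and CD28 recruit, rose 2.64-fold, to 648 and 593 in BTNL2 wells against 247 and 222 in B7-2 wells (limma adjusted p = 0.000134). The kinase gene Fyn rose 1.85-fold (adjusted p = 0.000894) and Pik3cd, a catalytic subunit gene, 1.49-fold (adjusted p = 0.00584). Malt1, the paracaspase gene of the NF-kB pathway, fell 2.16-fold, to 298 and 284 in BTNL2 wells against 659 and 598 in B7-2 wells (adjusted p = 0.000311). Against anti-CD3, 6 were higher with BTNL2 and 5 lower (median 0.08), 11 in all, against 6 when the second anti-CD3 array was left out and 7 when the first anti-CD3 or first BTNL2 array was. With B7-2 against anti-CD3, 1 was higher and 4 lower (median -0.14), with Pik3cg falling to 262 on average in B7-2 wells, against 523 in anti-CD3 wells (adjusted p = 0.00085) and Prkcq 1.57-fold (adjusted p = 0.00296).

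Of 20 measured genes known to regulate the mRNA or protein of these receptors, 3 were called higher and 5 lower in BTNL2 than in B7-2 wells (median 0.04). The total of 8 was 5 without either anti-CD3 array, either B7-2 array or the first BTNL2 array. Foxp3, whose protein binds and activates Ctla4, rose 4.1-fold (log2 change 2.04 ± 0.12, limma adjusted p = 6.59e-05), so that Foxp3 and Ctla4 changed in opposite directions. Trat1, an adaptor gene with a role in bringing CTLA-4 to the surface, rose 2.68-fold, to 795 and 774 in BTNL2 wells against 276 and 310 in B7-2 wells (adjusted p = 0.000667). Prdm1 and Maf, which encode factors that promote inhibitory receptor expression, fell 2.27-fold (adjusted p = 0.000324) and 1.69-fold (adjusted p = 0.00122). In B7-2 against anti-CD3 wells 2 of the 20 were higher and 2 lower (median -0.13). There Prdm1 rose 2.43-fold (adjusted p = 0.000445), to 191 and 216 in B7-2 wells against 79.6 and 87.4 in anti-CD3 wells, and Maf fell 3.17-fold (adjusted p = 0.000166), to 223 and 208 in B7-2 wells against 675 and 691 in anti-CD3 wells. Against anti-CD3, 4 of the 20 were higher with BTNL2 and 6 lower (median -0.08), 6 in all without the first anti-CD3 array or the first BTNL2 array.

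**Figure D4:**
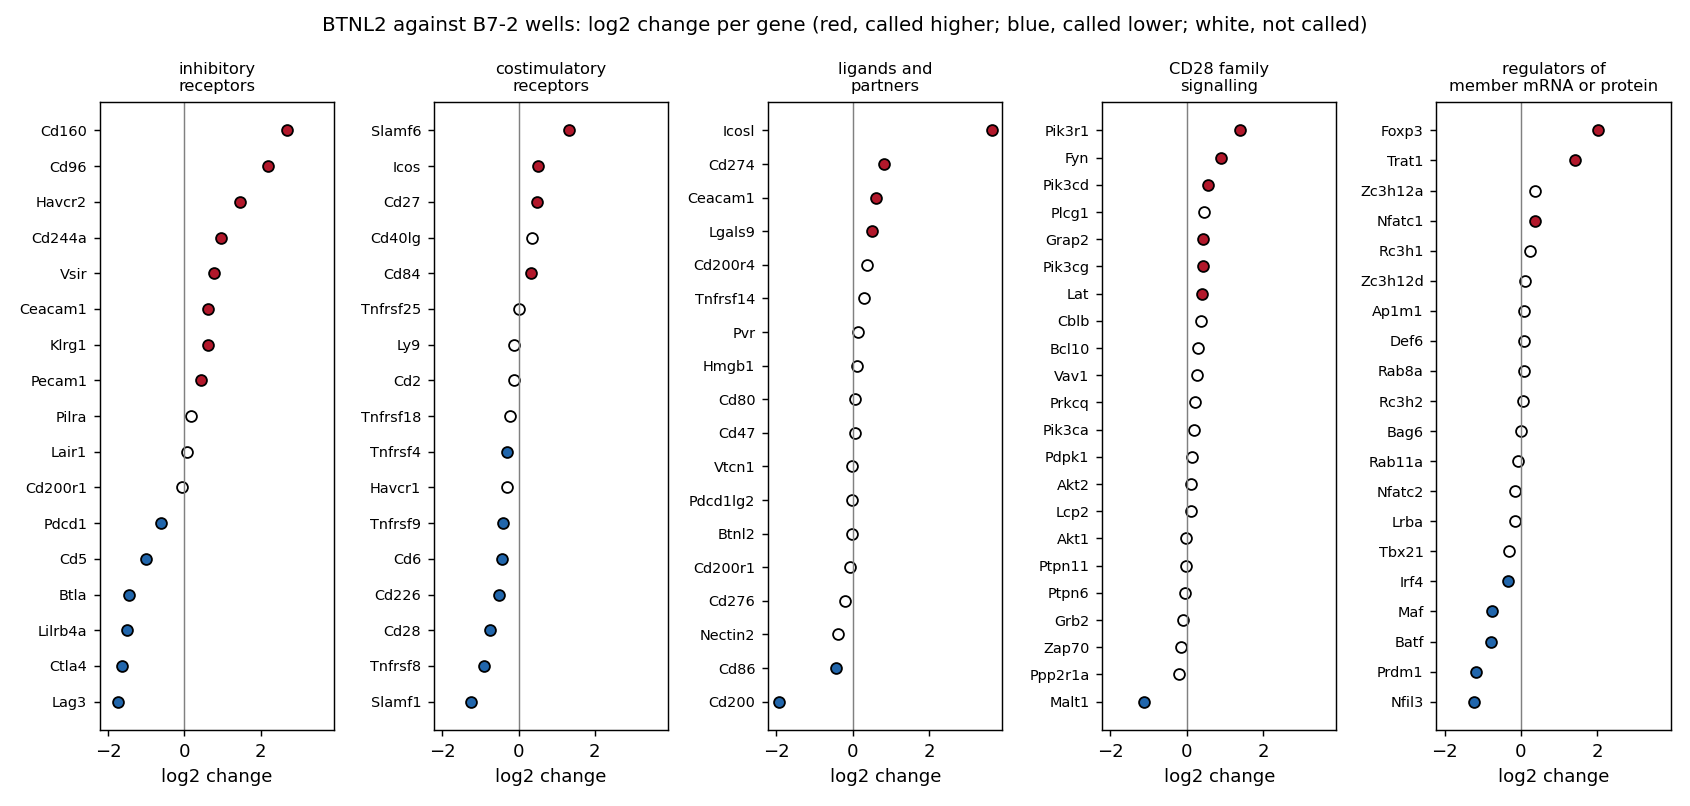
log2 change in BTNL2 against B7-2 wells for each measured gene of the 5 lists; red points were called higher, blue points lower and white points not called. Inhibitory receptors run from Lag3 at -1.73 to Cd160 at 2.69, and Icosl at 3.65 is the furthest point to the right.

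For each of the 5 genes, the 3 genes of most similar pattern were sought among the genes called in at least 1 comparison, predicted genes and clones left out, by the root mean square difference of log2 values over the 6 arrays after centring each gene on its mean. Closest to Ctla4 were Pter (0.0676), Vegfa (0.0897), which encodes a vascular growth factor, and Map3k20 (0.0951), a stress kinase gene. Vegfa read 24.7 and 25.9 in BTNL2 wells, 80.3 and 77.2 in B7-2 wells, and 57.2 and 51.2 in anti-CD3 wells. Closest to Cd200 were Fzd7 (0.0987), a Wnt receptor gene, Armcx4 (0.104) and Timd2 (0.127), a gene of the TIM family to which Havcr2 belongs. Timd2 read 136 and 136 in BTNL2 wells, 594 and 559 in B7-2 wells, and 349 and 323 in anti-CD3 wells, and so had the reverse order of Havcr2 between BTNL2 and B7-2 wells.

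Closest to Cd160 were Pld4 (0.103), a nuclease gene, Klrk1 (0.137), the gene of the activating receptor NKG2D, and P2ry14 (0.141). Klrk1 read 179 and 162 in BTNL2 wells, 31.1 and 34.1 in B7-2 wells, and 40.6 and 53.9 in anti-CD3 wells. Closest to Havcr2 were Idi2 (0.175), Rgs16 (0.229), a regulator of G protein signalling, and Ncl (0.248). Rgs16 read 185 and 180 in BTNL2 wells, 64.2 and 61.6 in B7-2 wells, and 41.5 and 45.5 in anti-CD3 wells. Closest to Icos, by its brightest probe set, were Efcab9 (0.0392), Mief2 (0.0415) and Akr1c12 (0.0458), whose changes were as small as its own. Some of the genes named as closest were dim. Efcab9 read 6.71 to 9.68 on the 6 arrays, and Idi2 4.96 and 5.46 in anti-CD3 wells. P2ry14 read 6.87 and 7 in B7-2 wells, and all these values lay close to the nonspecific controls. The arrays are shared by all genes, so these distances describe 6 arrays and carry no test.

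**Figure D5:**
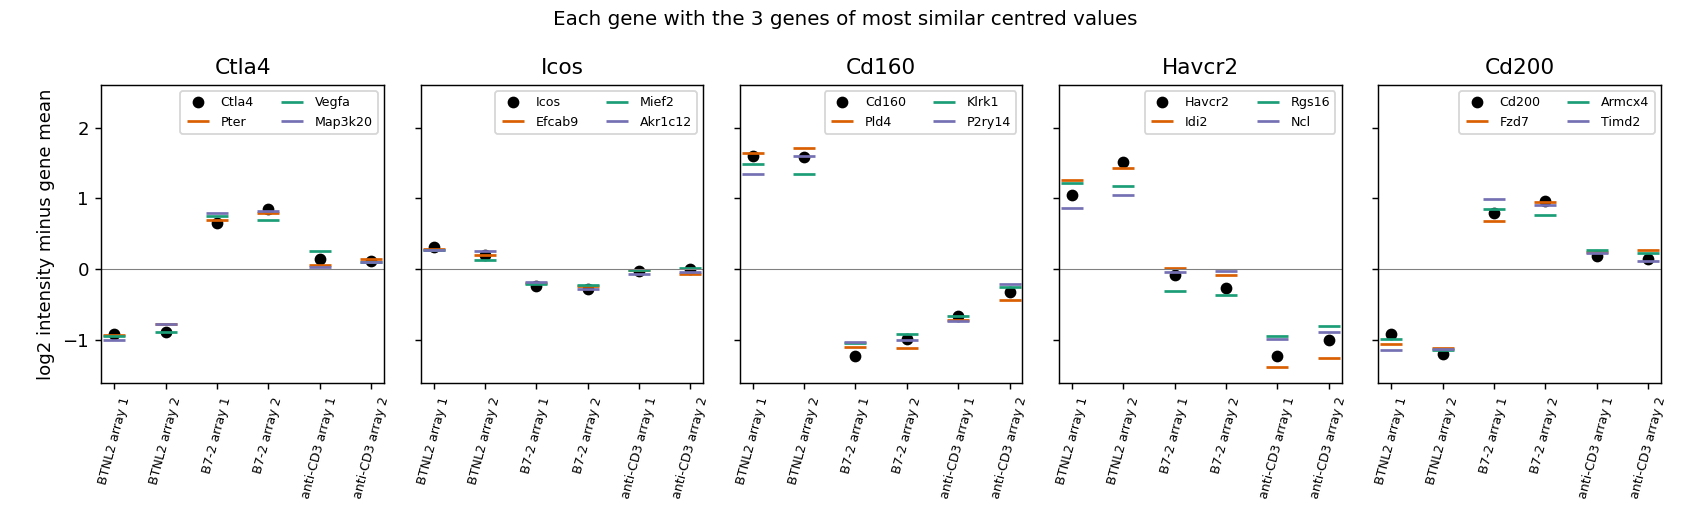
log2 intensity minus the mean of the gene on each of the 6 arrays, for each of the 5 genes (black points) and the 3 genes closest to it (dashes). Ctla4 and Cd200 and their closest genes are highest on the B7-2 arrays and lowest on the BTNL2 arrays, whereas Cd160 and Havcr2 are highest on the BTNL2 arrays.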

How the data were processed

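Messenger RNA of 6 cultures, 2 per coating, was measured on 1 one-colour oligonucleotide array each. Total RNA (50 ng per sample) went through NuGen Ovation amplification and biotin labelling per the labels' protocols, steps that can change the relative signal of transcripts. The intensity values deposited by the authors are linear and were summarised per probe set with RMA, per the submitters' processing notes; its software, version and chip definition were not given in the sources used here. RMA forces all arrays to 1 distribution and hides any shift shared by most genes.

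The values were log2 transformed. Of 45141 probe sets, 104 were controls, 28898 had 1 symbol in the platform annotation, 551 had several and 15588 were unnamed here; for 28689 the symbol was brought up to date through its Entrez identifier in the GRCm38.p6 gene table. A gene was represented by its probe set of highest mean, with no filter on dim genes. The test was that of limma 3.58.1 under R 4.3.3 (eBayes on 1 fit to all 6 arrays, 3 residual and 4.02 prior degrees of freedom, two-sided), over 17097 genes and separately over 45037 probe sets, with a Benjamini-Hochberg adjusted p under 0.05 as the threshold. The procedure was tested on simulated data. The genes and lists were chosen with earlier results of these data known. Named beside them, by rule, were the 4 genes of each list with the smallest p in BTNL2 against B7-2 wells, the 2 in B7-2 against anti-CD3 wells, 7 partner genes and the 3 genes of closest pattern. Cd8a, Cd8b1, Eomes, Batf3, Cd4, Ncr1, Lyz2, Cd68, Cd79b, Ms4a1, Ebf1 and Pax5 were named as markers after their values were seen.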

Additional observations from a re-analysis of the deposited data

How the results depend on the processing

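Alternatives changed the variance prior, the scaling, which arrays were fitted, whether dim genes stayed, the probe set per gene, the replicate block and each array in turn, and leaving arrays out of the list counts was added after seeing the data. None reversed a called change of the 5 genes. In BTNL2 against anti-CD3 wells Icos was called higher with an intensity trend in the prior (log2 change 0.26), with dim genes left out (0.26), with the mean of its probe sets (0.58) and with its probe set of largest variance (0.76); in B7-2 against anti-CD3 wells it was called lower with the trend and with dim genes left out (-0.25 in both). Without 1 array, the log2 change in B7-2 against anti-CD3 wells ranged from 0.82 to 1.05 for Havcr2 and from -0.77 to -0.45 for Cd160, and 3 to 6 of the 10 probe sets were called. The number of genes called then ranged from 2142 to 3015 in BTNL2 against B7-2 wells, from 3726 to 4870 in BTNL2 against anti-CD3 wells and from 2454 to 4128 in B7-2 against anti-CD3 wells; fewer arrays leave fewer degrees of freedom.

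Genes called per list without 1 array, in BTNL2 against B7-2 wells, ranged from 4 to 9 for costimulatory receptors, 4 to 7 for signalling and 5 to 6 for regulators. In BTNL2 against anti-CD3 wells the ranges were 6 to 10, 6 to 11 and 6 to 9. In B7-2 against anti-CD3 wells they were 4 to 7 for inhibitory receptors and 1 to 3 for ligands and partners. The replicate numbers did not pair the arrays: deviations of same-numbered arrays correlated at -0.0272, -0.000967 and -0.0641 between groups. With the replicate number as a block, the calls of the 5 genes were as without it, 5, 4 and 4 in the 3 comparisons, and 3160, 4827 and 3765 genes were called.

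The motif counts were the same without the 50 bases after the start. No detection values were available here. Dim probe sets included those of Cd160, Icosl, Tnfrsf14, Ceacam1 and Cd226. Their changes rest on intensities nearer to background than those of Ctla4, Icos and Cd200.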
